A study of Mus musculus with 6 samples.

Results

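The genes described here are 36 genes of the cell cycle and of DNA replication, out of 27962 gene names on the array, in livers of mice that drank alcohol for 1, 2 or 4 months. A gene was taken where a probe carried its symbol as gene name, and its brightest probe stood for it. All 36 were found, 12 of them acting in G1, 11 in S phase and 13 in mitosis. Most differed little between alcohol and control livers: 31 of the 36 stayed within 1.5-fold at every month. The exceptions with a signal well above background were Cdkn1a, the p21 inhibitor of cyclin-dependent kinases, 2.46-fold higher in the alcohol pool at 2 months, and Mcm6, a subunit of the replicative helicase, 2.02-fold higher in the alcohol pool at 4 months. Over all probes tested, 0.588%, 1.17% and 2.24% were at least 1.5-fold higher at the 3 months in order, on arrays agreeing in direction. By the same rule 0.63%, 1.49% and 1.48% were lower, so small ratios were common across the array. No member passed the test over the 3 months after adjustment.

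Male 129/Sv mice, 6 to 8 weeks of age at the start, were first accustomed to the control liquid diet and then received either a liquid diet with 4% ethanol, freely available, or an isocaloric diet in which maltose dextran took the place of ethanol. The mice were otherwise untreated, and the study sought early markers of alcoholic liver damage. At each month, liver RNA of 6 mice was combined into an alcohol pool and that of 6 others into a control pool, and both pools were hybridized together on 2 two-color arrays with exchanged dyes. A pool hides the differences between its mice, and the paired arrays are repeats of the same RNA, so that each month holds 1 comparison of 1 pool with 1 pool and p-values are possible only over the 3 months.

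In the cell cycle, D-type cyclins with Cdk4 and Cdk6, and E-type cyclins with Cdk2, release E2F transcription factors from the retinoblastoma protein in G1, while inhibitors such as Cdkn1a, Cdkn1b and Cdkn2c hold these kinases back. E2F then drives genes of S phase, among them the Mcm2 to Mcm7 helicase subunits and the enzymes that make deoxynucleotides, and the mitotic genes follow under the DREAM and FOXM1 complexes, which act through the cell cycle genes homology region (CHR) in their promoters. Adult hepatocytes are mostly quiescent and re-enter the cycle after injury or loss of liver tissue, and Cdkn1a is known as a p53 target and as a brake on that re-entry.

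The promoters of members that come up again below are shown with the letters that such factors are known to bind. A window from 250 bases before to 50 bases after the start was held in the RefSeq table of GRCm38.p6 for 29 of the 36 members. The letters searched, on both strands, were TTTGGCGC, TTTCGCGC, TTTCCCGC and TTTGCCGC for E2F, where a site and its mirror site can overlap, and TTTGAA and TTCGAA for the CHR. In the stretches below, which lie upstream of the start and read 5′ to 3′ along the gene, capitals mark the E2F letters in the first 3 and the CHR letters in the last 2. The stretch of Mcm7 also holds the CHR letters TTCGAA, left in lower case.
Mcm5, chr8:75109341-75109382, plus strand: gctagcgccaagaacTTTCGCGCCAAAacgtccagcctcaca
Mcm6, chr1:128359730-128359830, minus strand: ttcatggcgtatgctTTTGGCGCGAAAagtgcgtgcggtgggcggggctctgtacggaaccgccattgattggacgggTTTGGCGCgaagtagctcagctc
Mcm7, chr5:138172026-138172063, minus strand: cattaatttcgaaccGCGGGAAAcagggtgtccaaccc
Mki67, chr7:135716457-135716510, minus strand: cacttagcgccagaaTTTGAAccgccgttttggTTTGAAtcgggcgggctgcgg
Top2a, chr11:99024192-99024383, minus strand: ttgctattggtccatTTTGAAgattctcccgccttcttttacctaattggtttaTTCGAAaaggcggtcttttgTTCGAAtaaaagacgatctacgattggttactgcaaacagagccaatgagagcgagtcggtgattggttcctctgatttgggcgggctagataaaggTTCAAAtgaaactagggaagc

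The E2F letters were found in 5 of 10 S-phase genes with a window, in 1 of 9 G1 genes and in 0 of 10 mitotic genes, against 2.61% of 27025 genes of the table. The CHR letters were found in 8 of 10 mitotic genes, in 2 of 10 S-phase genes and in 0 of 9 G1 genes, against 21.7% of all genes. The CCAAT letters of NF-Y, which shares many promoters with the CHR, were in 9 of 10 mitotic, 8 of 10 S-phase and 4 of 9 G1 genes, against 41.1%. Both windows of Cdkn1a held none of these letters. A match of letters describes the sequence and was not tied to binding in these livers.

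Each array listed 45018 spots, of which 43379 were not controls, and 73.3% to 90.3% of these were well above background in a channel. All 6 hepatocyte markers with a probe had a signal well above background in every channel. The 1-month arrays lay on one slide and the 2-month and 4-month arrays on another, so the slide and the step from 1 month to later months cannot be told apart. Some marker lists of other cells differed between pools. The summed level of 6 erythroid genes, in multiples of the 75th percentile of the channel, was 77.7 to 100 in the alcohol pool and 23.1 to 36.4 in the control pool at 1 month, with the globin genes Hba-a1 and Hbb-b1 at log2 ratios of 1.51 and 1.97. The other 4 erythroid genes had ratios between -0.03 and 0.17 at that month. At 4 months the sum was 37.8 to 50.2 against 28.4 to 34.0, with the globins at 0.61 and 0.63 and Alas2, the erythroid enzyme of heme synthesis, at -2.28 and -1.73 on its arrays. The 6 endothelial genes had a median log2 ratio of 0.36 at 1 month and 0.07 at 4 months. At 4 months the summed level of 14 pancreatic acinar genes was 33.3 to 34.7 in the alcohol pool and 25.6 to 28.2 in the control pool, and 6 of them were at least 1.5-fold higher in the alcohol pool. In bulk liver RNA, fewer cells of a type and less RNA per cell cannot be told apart.

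Of the 36 members, 28 had a signal well above background in every channel of the 6 arrays, and 26 of these 28 stayed within 1.5-fold at every month. The other 8 were Cdk2, Mcm2, Rrm2, Cdc6, Ccnb1, Aurkb, Bub1 and Bub1b, and none was saturated on any array. A member was counted as raised or lowered where the averaged ratio of the pair was at least 1.5-fold and both arrays had the same direction. At 1 month 0 of 34 members tested were raised and 0 lowered, where 0.588% of 37922 probes were raised and 0.63% lowered. At 2 months the averaged ratios of 2 members, Cdkn1a and Bub1b, passed this limit upward, as did those of 1.17% of probes, and 0 passed it downward, as did 1.49%. At 4 months 2 members, Mcm6 and Bub1b, passed it upward, as did 2.24% of probes, and 0 downward, as did 1.48%. Both pools were measured for Cdkn1a at 2 months and for Mcm6 at 4 months, whereas the Bub1b probe was too dim in both pools at 2 months and in the control pool at 4 months, so that its ratios are not measured differences. Aurkb and Bub1, which were not well above background in any pool, were outside these counts. They had ratios of -0.84 at 2 months for Aurkb and 0.73 at 4 months for Bub1, neither of which is a measured difference.

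**Figure D1:**
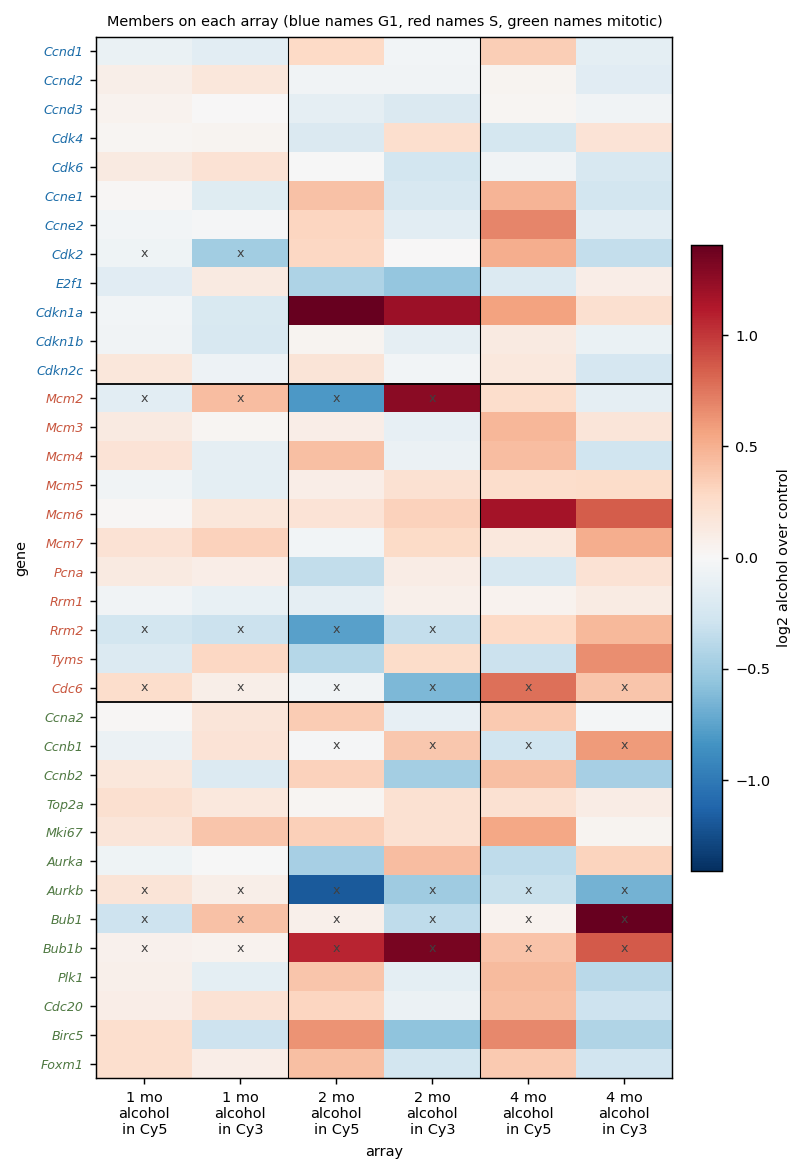
Log2 alcohol over control ratio of the 36 genes (rows) on each of the 6 arrays (columns, 2 per month with exchanged dyes), red where the alcohol pool was brighter and blue where the control pool was; an x marks a month at which a pool was too dim on at least 1 of its arrays. Cdkn1a is red on both arrays at 2 months and Mcm6 on both at 4 months, and many other rows are red on one array of a pair and blue on the other.

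Among the G1 genes, Cdkn1a stood alone. With alcohol in Cy5 and then in Cy3, the order kept for all pairs below, its log2 ratio was -0.04 and -0.22 after 1 month. After 2 months it was 1.40 and 1.20, and after 4 months 0.56 and 0.23. The alcohol pool was thus higher on all 4 arrays of the later months and lower on both arrays of 1 month. Its level, the log2 signal minus the 75th percentile of its channel, was 1.26 in the alcohol pool and -0.04 in the control pool at 2 months, and the 2 arrays of each pool did not overlap. At 4 months the levels were 0.83 and 0.43, again without overlap, a 1.31-fold difference. The mean over the 3 months was 0.52 ± 0.277 (limma standard error), with an adjusted p of 0.677 by limma, and the months differed among themselves by up to 1.43. At 2 months the hepatocyte markers Tat and Ttr had 0.61 and -0.55 and the erythroid Alas2 had -0.75, and their part in the Cdkn1a difference was not tested.

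The kinases that Cdkn1a is known to inhibit were given by probes of unequal quality. Cdk4 had averaged log2 ratios of 0.03, 0.02 and -0.03, and Cdk2, too dim in both pools at the first month, had averaged ratios of 0.15 and 0.09 at 2 and 4 months, the latter from arrays at 0.51 and -0.33. A second Cdk2 probe was below 0 on all 6 arrays, at -0.18, -0.37 and -0.74 (adjusted p = 0.616 by limma), but neither pool was well above background on it at 1 and 2 months, and at 4 months the alcohol pool was on 1 array only. The D-type cyclins, which carry growth signals to Cdk4 and Cdk6, stayed between -0.17 and 0.12 on their brightest probes. Ccnd2 had 0.12, -0.05 and -0.06 at the 3 months and Ccnd3 had 0.03, -0.17 and -0.01. Another well measured Ccnd2 probe was lower in the alcohol pool at 2 months, with -0.29 and -0.34. Ccnd1 had -0.12, 0.12 and 0.10, and its arrays had opposite directions at 2 and 4 months. On their brightest probes the other inhibitors had -0.14, -0.05 and 0.02 for Cdkn1b and 0.04, 0.07 and -0.04 for Cdkn2c. Another well measured Cdkn1b probe had -0.25, 0.32 and -0.15, with 0.19 and 0.45 on the arrays of 2 months.

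E2f1, an activating E2F, was lower in the alcohol pool at 2 months on its brightest probe. Cdkn1a had its highest ratio at that month, and a link between the 2 genes was not tested. The log2 ratios of E2f1 were -0.43 and -0.55 on the arrays of 2 months, a 1.40-fold difference. They were -0.16 and 0.13 at 1 month and -0.19 and 0.09 at 4 months, where the arrays disagreed. A second E2f1 probe, measured in both pools at that month, did not share the difference, with 0.28 and -0.26 on the arrays of 2 months. The E-type cyclins Ccne1 and Ccne2, which are E2F targets, had averaged ratios of 0.09 and 0.07 at 2 months and 0.11 and 0.27 at 4 months, each with arrays in opposite directions. The second probe of Ccne1 was above 0 on all 6 arrays, at 0.13, 0.34 and 0.29 (adjusted p = 0.616 by limma), while the brighter one was above 0 on 3. The 3 probes of Cdk6 also differed, at -0.14, 0.14 and -0.08 at 4 months.

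**Figure D2:**
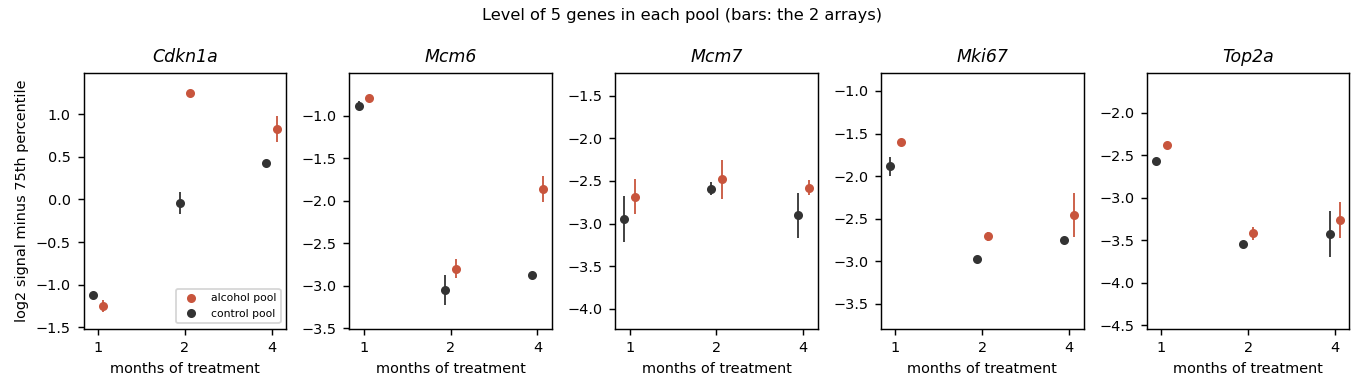
Level of 5 genes (log2 signal minus the 75th percentile of the channel, vertical axis, each panel spanning the same range) in the alcohol pool (red) and the control pool (black) at 1, 2 and 4 months (horizontal axis); points are means of the 2 arrays and bars join the 2 arrays. The pools of Cdkn1a lie apart at 2 months (1.26 and -0.04) and those of Mcm6 at 4 months (-1.86 and -2.88), while for Mcm7 the arrays of both pools overlap at every month.

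In S phase the helicase subunit Mcm6 had the highest ratio. Its log2 ratios were 0.02 and 0.16 in the first pair of arrays, 0.19 and 0.32 in that of 2 months and 1.17 and 0.85 in that of 4 months. All 6 arrays were above 0, and those of 4 months were above all the others. At 4 months its level was -1.86 in the alcohol pool, with arrays at -2.02 and -1.71, and -2.88 in the control pool, with arrays at -2.88 and -2.87. The mean over the months was 0.45 ± 0.194 (limma standard error), with an adjusted p of 0.632. The slope was 0.46 ± 0.116 per doubling of time, with an unadjusted p of 0.0164 and an adjusted p of 0.687 by limma. This slope was the only one among the members with an unadjusted p below 0.05, where 3.73% of probes had such a rising slope. The acinar genes also differed between the pools of 4 months, with a median ratio of 0.42 and all 14 well above background, and so did the globins and, in the opposite direction, Alas2. Their part in the Mcm6 difference was not tested.

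At 4 months the other subunits of the Mcm2 to Mcm7 ring had smaller averaged ratios than Mcm6. At 1 month that of Mcm7 was larger, at 0.26 against 0.09. Mcm7 had 0.20 and 0.33, then -0.04 and 0.27, then 0.14 and 0.51, above 0 on 5 of 6 arrays. Its mean over the months was 0.24 ± 0.0704 (limma standard error), with an unadjusted p of 0.0221 and an adjusted p of 0.616. Mcm5 passed from -0.05 and -0.14 at the first month to 0.09 and 0.21 and then to 0.25 and 0.26. Mcm3 had 0.13 and 0.03, then 0.09 and -0.11, then 0.47 and 0.17. Thus 4 of the 6 subunits, Mcm3, Mcm5, Mcm6 and Mcm7, were above 0 on both arrays at 4 months, against 3 at 1 month and 2 at 2 months. Over all 34 tested members this held for 15, 7 and 11 at the 3 months in order, and over all tested probes for 26.8%, 17.5% and 15.7%. Mcm4 did not join them, since its arrays had 0.43 and -0.28 at 4 months, and Mcm2, measured in full only at that month, had 0.25 and -0.13.

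The remaining genes of S phase divided. Pcna, the sliding clamp of the polymerases, had averaged ratios of 0.11, -0.12 and -0.02, and Tyms, which makes thymidylate, had 0.05, -0.07 and 0.18, both with arrays in opposite directions at 2 and 4 months. Rrm1, the large subunit of ribonucleotide reductase, had -0.08, -0.03 and 0.08. Its partner Rrm2, limiting for the enzyme in S phase, was well above background in the control pool alone at 1 month, which gave at least 1.09-fold more in the control pool. At 4 months, where Rrm2 was measured in both pools, its arrays had 0.28 and 0.45. Cdc6, which loads the helicase onto origins, was well above background in a pool on 1 array at most.

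As a group, the 11 S-phase genes had median log2 ratios of 0.08, -0.01 and 0.25 over the 3 months, where the median of all tested probes lay between -0.01 and 0.01. At 4 months 10 of the 11 were above 0, and the medians of the 2 arrays were 0.25 and 0.26, both the values of the middle gene Mcm5. The 2 arrays had the same direction for 7 of the 11 S-phase genes at that month, against 33.3% of all tested probes. Of all 34 tested members, 20 had an averaged ratio above 0 at 1 month, 21 at 2 months and 25 at 4 months, against 51.4%, 51.8% and 47.5% of tested probes. Without Mcm6 the S-phase median at 4 months was 0.21. The acinar genes, the globins and Alas2 also differed between the pools of that month, and their part in the S-phase median was not tested. The 12 G1 genes had medians of -0.02, 0.04 and 0.00 and the 13 mitotic genes 0.06, 0.11 and 0.13. For the G1 genes the 2 arrays had medians of 0.11 and -0.09 at 2 months and 0.14 and -0.14 at 4 months. For the mitotic genes the 2 arrays had medians of 0.32 and -0.11 at 2 months and 0.37 and -0.02 at 4 months.

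**Figure D3:**
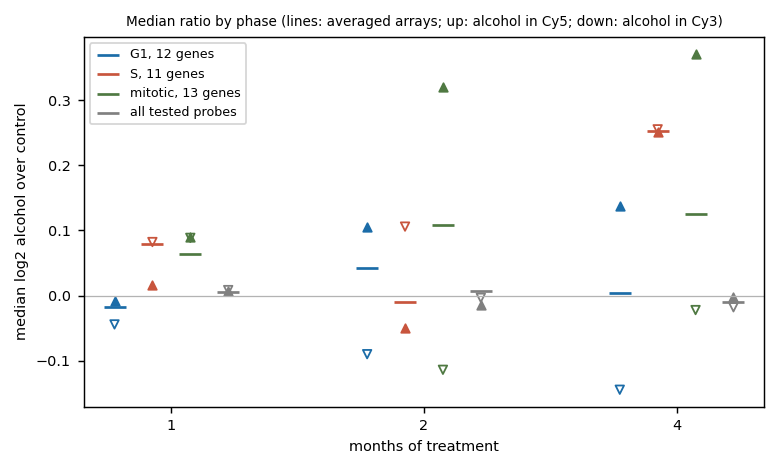
Median log2 alcohol over control ratio (vertical axis) of the G1, S and mitotic genes and of all tested probes at 1, 2 and 4 months (horizontal axis); lines give the median of the averaged arrays, filled triangles the array with alcohol in Cy5 and open triangles the array with alcohol in Cy3. At 4 months the arrays of the S-phase genes have medians of 0.25 and 0.26, both the values of the middle gene Mcm5. Of these 11 genes, 7 had the same direction on both arrays. The arrays of the mitotic genes lie apart at 0.37 and -0.02.

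Of the mitotic genes, Mki67 and Top2a had small ratios in the same direction on every array. Mki67, the proliferation antigen Ki-67, had log2 ratios of 0.17 and 0.39 first, 0.33 and 0.22 after 2 months and 0.54 and 0.04 after 4 months. All 6 lay above 0, and the averaged ratios of 0.28, 0.27 and 0.29 differed by less than the arrays of any month. Its mean was 0.28 ± 0.058 (limma standard error), with an unadjusted p of 0.00539 and an adjusted p of 0.616. A second Mki67 probe, also well above background on all arrays, had 0.23, 0.18 and -0.02 and was above 0 on 4 arrays.

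Top2a, the topoisomerase that untangles chromosomes before they part, had 0.23 and 0.14, then 0.03 and 0.22, then 0.21 and 0.11 over the months. Every array was above 0, and the mean was 0.16 ± 0.059 (limma standard error), with an unadjusted p of 0.048 and an adjusted p of 0.626. Its other probes, not well above background throughout, did not share this pattern, and one of them had -0.95 at 4 months. At 1 month, when Mki67, Top2a and Mcm7 were above 0 on both arrays, the globin genes and the endothelial genes were also higher in the alcohol pool, and so were the summed levels of 9 myeloid and Kupffer cell genes, at 18.9 to 19.5 against 16.8 to 18.2 multiples of the 75th percentile, of 6 stellate cell genes, at 16.7 to 17.7 against 14.97 to 16.55, and of 7 lymphocyte genes, at 6.65 to 7.07 against 6.28 to 6.49. The log2 ratios of the myeloid genes ran from -0.29 for S100a9 to 1.23 for the macrophage marker Adgre1, with a median of 0.07. The part of these cell markers in the ratios of the members was not tested.

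The spindle checkpoint kinase Bub1b had averaged ratios of 1.21 at 2 months and 0.63 at 4 months, on a dim probe. At 2 months neither pool was well above background, so that no fold can be given, and at 4 months only the alcohol pool was, on 1 of its arrays, which gave at least 1.13-fold more in the alcohol pool. With normexp background correction and loess normalization together, the averaged ratios were 0.27 and 0.32, below 1.5-fold. Birc5, the survivin subunit of the chromosomal passenger complex, was measured well and had averaged ratios of -0.03, 0.03 and 0.13. Its single arrays had 0.63 and -0.57 at 2 months and 0.68 and -0.43 at 4 months. Foxm1, the activator of mitotic genes, had 0.16, 0.08 and 0.05. At 4 months the cyclins Ccna2 and Ccnb2 had 0.17 and -0.03, the kinases Plk1 and Aurka 0.03 and -0.02 and the anaphase activator Cdc20 0.06, each with arrays in opposite directions.

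The probes of Ccnb1, the cyclin that takes Cdk1 into mitosis, disagreed. The brightest, dim at the later months, had 0.05 at 1 month. A second had -0.67 at 2 months, where neither pool was well above background, and 0.20 at 4 months. The remaining probe was above 0 on all 6 arrays, at 0.43, 0.55 and 0.79, with an unadjusted p of 0.00154 and an adjusted p of 0.613 by limma. On this probe neither pool was well above background at 1 and 2 months. At 4 months only the alcohol pool was, which gave at least 1.39-fold more in the alcohol pool.

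The exchange of dyes allows the dye-dependent part of each ratio to be set beside the averaged ratio. The dye-dependent part of a ratio, taken as the mean of the ratio with alcohol in Cy5 and the sign-turned ratio with alcohol in Cy3, was larger than the averaged ratio for 10 of 34 tested members at 1 month, 21 at 2 months and 22 at 4 months. Over all tested probes this was so for 49.4%, 62.8% and 66.7%. The dye part is larger exactly where the 2 arrays have opposite directions, so the next counts are the complement of these. Both arrays had the same direction for 24, 13 and 12 of the 34, against 50.6%, 37.2% and 33.3% of all tested probes. At 2 and 4 months the members lay near the share of all tested probes, and at 1 month a larger share of members agreed in direction. For 9 members the dye part was larger at every month, and the share of all tested probes for this was not computed. Over the 28 well measured members, the dye part of 2 months and that of 4 months had a correlation of 0.92 and the averaged ratios one of 0.48. For 1 and 2 months the same values were 0.62 and -0.15, and for 1 and 4 months 0.64 and 0.09. These are correlations across genes, which are not independent, and the arrays of 2 and 4 months shared a slide. For Cdkn1a at 2 months and Mcm6 at 4 months the dye parts were 0.10 and 0.16, smaller than the ratios of 1.30 and 1.01.

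**Figure D4:**
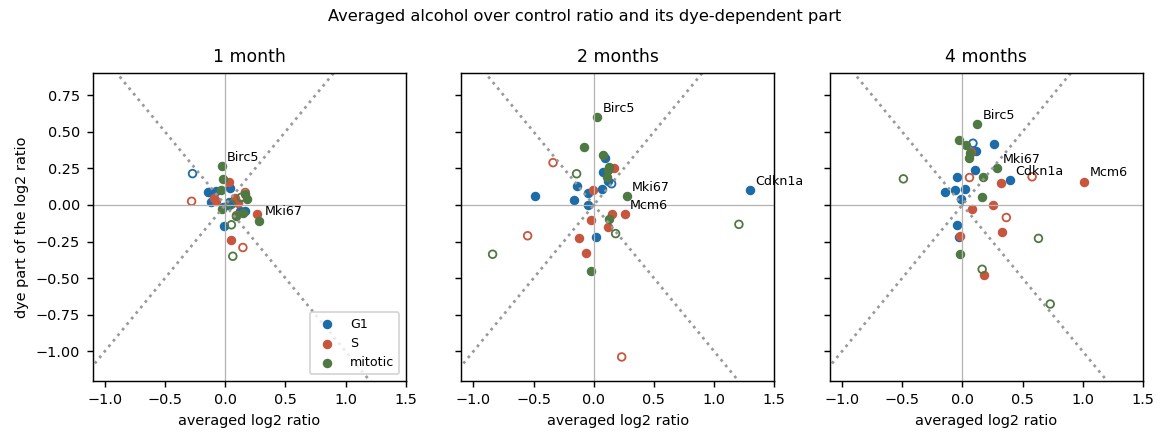
Dye-dependent part of the log2 ratio (vertical axis) against the averaged log2 alcohol over control ratio (horizontal axis) for the 36 genes at 1, 2 and 4 months, with open circles for genes not well above background on all arrays and dotted lines where both parts have the same size. Cdkn1a at 2 months (1.30 and 0.10) and Mcm6 at 4 months (1.01 and 0.16) lie far to the right near the horizontal line, and Birc5 lies high on the vertical line at 2 months (0.03 and 0.60).

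In the limma test of the mean over the 3 months, 0 of 34 members and 0% of the 37922 probes had an adjusted p below 0.05. At an unadjusted p below 0.05, 4 members were higher with alcohol, Mcm7, Top2a, Mki67 and Bub1b, where 3.72% of probes were, and 0 were lower, where 4.23% of probes were. A shared direction on all 6 arrays was seen above 0 for Mcm6, Top2a, Mki67 and Bub1b, where 1.72% of probes had it, and below 0 for 0 members, where 2.42% had it. Bub1b is in both counts through a probe that was too dim to measure at 2 months. For the slope over time 0% of probes had an adjusted p below 0.05, and 0 members had a falling slope with an unadjusted p below 0.05, where 3.39% of probes did. A t-test of the 3 monthly ratios without moderation had 0 members after adjustment. For the mean in either direction it had 5 members at an unadjusted p below 0.05, where 6.06% of probes had one. The t-tests reported in the paper were on samples of individual mice.

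**Figure D5:**
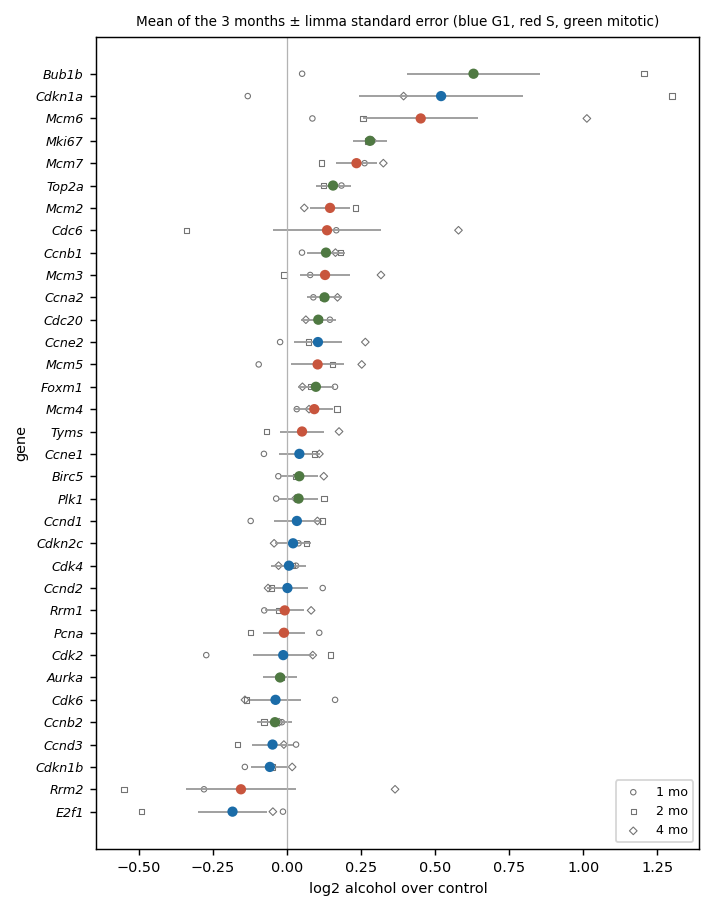
Mean log2 alcohol over control ratio over the 3 months for the 34 tested genes (rows), filled circles with bars of 1 limma standard error; open symbols give the averaged ratio of each month. The months of Mki67 (0.28, 0.27 and 0.29) coincide, those of Cdkn1a (-0.13, 1.30 and 0.39) and Mcm6 (0.09, 0.26 and 1.01) are spread, and E2f1 is at the lower end with -0.49 at 2 months.

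Further genes of the same pathways were examined as lists. Of all tested probes, 0.588%, 1.17% and 2.24% were raised after 1, 2 and 4 months, and 0.63%, 1.49% and 1.48% were lowered. Of 41 other replication genes tested, 0 were raised at any month, while 2 were lowered at 2 months and 2 at 4 months, and the medians were 0.04, -0.02 and -0.02. Mcm10, which joins the helicase to the polymerase at the fork, was lower on all 6 arrays, with -0.27 and -0.13, then -0.83 and -0.45, then -0.88 and -0.43. Its averaged ratio of -0.65 at 4 months stood opposite to the 1.01 of Mcm6 in the same pools, and its mean over the months was -0.50 ± 0.112 (limma standard error), with an unadjusted p of 0.00764 and an adjusted p of 0.616. Gmnn, the inhibitor of origin licensing, was also below 0 on all 6 arrays, with averaged ratios of -0.16, -0.40 and -0.08. Tk1, the thymidine kinase of S phase, changed sides, from 0.41 and 0.63 at 1 month to -0.70 and -0.57 at 2 months, and its arrays had -0.07 and 0.46 at 4 months. Orc5, a subunit of the origin recognition complex, was lowered at 4 months with arrays at -1.09 and -0.13.

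Of 28 other G1 and retinoblastoma pathway genes tested, 0 were raised, and E2f2 at 2 months and E2f8 at 4 months were lowered. E2f8, a repressor among the E2F factors, had arrays at -1.03 and -0.37, and E2f2 was too dim to be measured in the alcohol pool. Lin9, a subunit of the DREAM complex, was below 0 on all 6 arrays with averaged ratios of -0.32, -0.20 and -0.44 (adjusted p = 0.616 by limma). Of 43 other mitotic genes tested, 0 were raised at 1 and 2 months and 1, Pbk, at 4 months, with 0 lowered. Ube2c, the ubiquitin-conjugating enzyme of the anaphase-promoting complex, was above 0 on all 6 arrays at 0.15, 0.14 and 0.17.

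A list of p53 target genes, which also held Trp53, the gene of p53 itself, was set beside Cdkn1a, and 16 of its genes were tested. At 2 months, when Cdkn1a was 2.46-fold higher, 0 of them were raised, against 1.17% of probes, and 1, Plk2, was lowered, against 1.49%, and the median of the 16 was 0.03. Mdm2, the ubiquitin ligase that p53 induces against itself, had 0.14 at 2 months, and Ccng1, Bax and Btg2 had -0.22, 0.02 and 0.06. The highest of the 16 at 2 months was Trp53inp1, a stress-induced p53 target, with arrays at 0.31 and 0.58. It was raised at 4 months, with arrays at 0.42 and 0.99, and Plk2 and Phlda3 were lowered, at -1.14 and -0.91. For all of these lists 0 genes had an adjusted p below 0.05 in the limma test of the mean.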

How the data were processed

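Scanner output of 6 Agilent two-color mouse arrays was used. The authors deposited, from Feature Extraction 9.1.1.1, a background-corrected and dye-normalized intensity for each channel and the log10 ratio of each spot, and also a table of log10 ratios. The table held alcohol over control and differed from the scanner ratios by 0.02 log2 or less for 100% of 40929 probes with 1 spot.

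Here the ratio of processed signals was turned to alcohol over control by the dyes in the labels, taken as log2, and averaged over spots and then over the pair of arrays. Probes well above background in a channel on at least 1 array were tested. The 3 monthly means were tested with limma 3.58.1 in R 4.3.3 against 0 and for a slope per doubling of time, with Benjamini-Hochberg adjustment over 37922 probes at 0.05, on code tested on simulated data. This left 2 and 1 residual degrees of freedom, so precision is limited by the 3 months with 1 pool per group in each. Limits written as at least N-fold came from single channels after normexp (offset 50), loess and Aquantile and are open to dye bias.

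Per-array values were given for members well above background throughout that were changed at least 1.5-fold, had a single direction on 6 arrays or an unadjusted p below 0.05, and for up to 3 more per phase by brightness, and up to 5 genes of the other lists with a single direction on 6 arrays were named. Other genes, among them E2f1, Bub1b, Ccnb1, Cdk2, Mcm3, Mcm5, Tk1, Orc5, E2f8 and the p53 targets, were named after their values were seen. The members and all lists were chosen with earlier results of these data known.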

Additional observations from a re-analysis of the deposited data

Results flagged for a closer look

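Among members with both pools well above background on the arrays of both months, 9 differences between months in the log2 ratio, in 6 genes, had arrays that all moved one way at one month and the opposite way at the other, and none of these differences was tested. The share of all tested probes with such a difference was not computed, so the count cannot be read as particular to these genes. The ratio of Cdkn1a was higher by 1.43 at 2 months and by 0.53 at 4 months than at 1 month. That of Mcm5 was higher by 0.25 at 2 months and by 0.35 at 4 months than at 1 month. For Rrm1 the difference of 4 months minus 1 month was 0.16. For Cdk6 the difference from 1 month was -0.30 at 2 months and -0.30 at 4 months, on the brightest of its probes, and another Cdk6 probe was above 0 on all 6 arrays. The difference of 2 months minus 1 month was -0.17 for Ccnd2 and -0.20 for Ccnd3. Each of the 9 sets 1 month against a later month, and the 1-month arrays lay on another slide, so slide and time cannot be told apart in them.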

How the results depend on the processing

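The counts of members with an adjusted p below 0.05 were 0 for the mean and for the slope under every alternative run. Over all probes there were 9 (mean) and 50 (slope) with normexp and loess and 6 (mean) when dim probes were left out. With the t-test without moderation there was 1 (slope). The ratio of Cdkn1a at 2 months was 1.20 to 1.40 and that of Mcm6 at 4 months 0.85 to 1.17 with a single array. Of 108 single-gene monthly ratios, 10 with normexp and loess and 12 over all probes of a gene moved by more than the SD of their 2 arrays. No member past 1.5-fold changed direction under the alternatives. The counts of members at least 1.5-fold here are over all 36 genes, with Aurkb and Bub1. Raised at 2 months, 2 became 1 with normexp and loess. Lowered at 2 months, 1 (Aurkb) became 0 with normexp and loess, the deposited log10 ratios, the deposited table, a 2-fold threshold, or 1.5-fold on each array, and 1 to 3 with a single array. Raised at 4 months, 3 became 1 with normexp and loess, a 2-fold threshold, or 1.5-fold on each array, and 4 to 5 with a single array. Lowered at 4 months, 0 became 0 to 1. The S-phase median at 4 months was 0.22 with normexp and loess, 0.26 with median centring, 0.20 over all probes of a gene, 0.21 over well measured members and 0.21 without Mcm6, an alternative added after seeing the data. The S-phase median at 2 months was 0.117 over all probes of a gene and -0.0496 to 0.106 with a single array, and at 1 month 0.0457 with normexp and loess, 0.0468 with the deposited ratios and 0.0161 to 0.0822 with a single array. Over all probes of a gene the mitotic median was 0.0306 at 2 months and 0.0646 at 4 months, and over well measured members 0.0646 at 4 months. The mitotic median at 1 month was 0.0204 with normexp and loess, 0.0520 with the deposited ratios, 0.0518 with the table, 0.0556 with median centring, 0.0898 over all probes and over well measured members, and 0.0886 to 0.0898 with a single array. The G1 median at 1 month was 0.0177 over all probes and -0.0442 to -0.00865 with a single array. The cause of these shifts was not tested. The ratios tested are already paired within each month, and with the slide as a block 0 members were called. Dim signal limits Cdk2, Mcm2, Rrm2, Cdc6, Ccnb1, Aurkb, Bub1 and Bub1b.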
